A study of Mus musculus with 240 samples.

Results

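The comparison described here is the effect of obesity on gene expression in the hypothalamus of 10-week-old male B6 mice, set by 10 arrays of the 240 in the series. Its members were chosen by title: 5 arrays of hypothalamus from B6 mice named B6ob, called ob below, and 5 from lean B6 mice, both at 10 weeks. The labels state no genotype at Lep for either group. The ob mutation is known as a loss of leptin, a satiety hormone encoded by Lep, and it is carried in every cell of the body, so that such animals also differ in body weight, feeding and blood hormones. Each array set the RNA of 1 mouse against a B6 hypothalamus pool made in equal parts from 20 samples. The other 30 hypothalamus arrays, from B6 mice at 4 weeks and from BTBR mice (a strain that becomes severely diabetic when made obese by the same mutation) at 4 and 10 weeks, entered the fit and serve here for comparison.

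The hypothalamus reads leptin through receptors on neurons of the arcuate nucleus. One set of these neurons makes Agrp and Npy, which promote feeding and are restrained by leptin, and another makes Pomc, the precursor of the melanocortin peptides that restrain feeding and is driven by leptin. Other hypothalamic cells make orexin, galanin and the releasing hormones that govern the pituitary.

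All values are log2 ratios of 1 mouse to the pool, and an effect is the mean of the 5 ob mice minus the mean of the 5 lean mice followed after ± by its standard error (SE) in the fit. The pool cancels in that difference. Only genes with an adjusted p under 0.05 in limma, over 19896 genes, are said to rise, fall or change. A ratio to a pool holds no level, so the labelled tissue could not be checked by how abundant its markers are, and in bulk tissue fewer cells of a type and less RNA per cell cannot be told apart. Titles name the pool first, nothing in the labels says which channel is the numerator, and the direction is not settled for B6 hypothalamus. Of the 200 most variable probes, 44.5% averaged below 0 over the 20 B6 hypothalamus arrays, where a ratio of mouse to pool should give most of them below 0. The other 11 sets of strain and tissue had 62.5% to 96.5%. Over 1000 probes the share was 71.0%, against 76.8% to 98.2% in the others. Over 50 probes it was 38.0%, against 32.0% to 98.0%, and BTBR gastrocnemius (32.0%) and BTBR hypothalamus (42.0%) lay below 50% there too. Among the 190 pairs of B6 hypothalamus arrays, 7 correlated below -0.3 over all probes, the lowest at -0.49, each of them between groups and with a 4-week mouse, while pairs within the 10-week groups ran from 0.02 to 0.30. Directions below take the ratio as mouse over pool, the likely one from the other 11 sets at 200 and 1000 probes, though at 50 probes only 9 of the 11 bear it out. Were it the reverse, each rise would be an equal fall.

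Obesity changed 151 genes in the 10-week B6 hypothalamus, 0.759% of those tested: 60 rose (0.302%) and 91 fell (0.457%). With the sign turned these are 91 rises and 60 falls. The changes were small. Their median size was 0.36 on the log2 scale, 30 exceeded 0.5 and 3 exceeded 1. In 124 of the 151 the 5 ob and the 5 lean values did not overlap, with the ob mice higher in 48 and lower in 76. Of all genes tested 617 (3.1%) had no overlap, 281 with the ob mice higher (1.41%) and 336 with them lower (1.69%). In this comparison an unadjusted limma p below 0.05 was reached by 2173 of the 19896 genes. Agrp and Npy rose. Among the falls were Pkd2l1, Fmo2, Angptl4, Txnip and Ide, several chaperones of the endoplasmic reticulum, and 21 of 59 clustered histone genes. The count rests on the spread estimated from all 40 hypothalamus arrays: fitted on the 10 arrays alone, 51 genes passed.

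Of the 7 measured feeding-promoting peptides, 2 rose and 0 fell, with a median effect of 0.13 against 0.00 over all genes. Of all genes 0.302% rose and 0.457% fell. Agrp encodes the melanocortin antagonist that drives feeding. Its log2 ratios were -0.28, 0.29, -1.05, 0.68 and 0.39 in ob mice 9, 1751, 1752, 1822 and 1823, and -1.22, -0.73, -1.32, -1.22 and -1.38 in lean mice 20, 22, 23, 24 and 48. Ob mouse 1752 lay below lean mouse 22, so the groups overlap by that pair alone. The effect was 1.18 ± 0.28 on the log2 scale, 2.27-fold (limma adjusted p = 0.0281, exact permutation p = 0.0159, 2-sided). Npy, the feeding-promoting neuropeptide made by the same arcuate neurons, measured -0.10, 0.18, -0.45, 0.26 and 0.17 in the same ob mice and -0.67, -0.52, -0.68, -0.47 and -0.51 in the lean mice. Here the groups did not overlap, and mouse 1752 was again the lowest of the ob mice. Npy rose by 0.58 ± 0.14 (limma adjusted p = 0.0406, exact permutation p = 0.00794, the smallest that 5 against 5 can give). Both calls were lost in the fit on the 10 arrays alone (limma adjusted p = 0.146 for Agrp and 0.0976 for Npy). The call of Agrp also ended without ob mouse 1751, 1822 or 1823 or lean mouse 20, 23 or 48, with effects of 1.01 to 1.17. That of Npy ended without any of those or without lean mouse 22, with effects of 0.52 to 0.60.

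The other 5 measured members were Hcrt (orexin), Gal (galanin), Penk, Pdyn and Npvf, and their effects ran from -0.15 for Gal to 0.14 for Pdyn. None of these 5 passed the test, and in each the groups overlapped.

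Of 16 measured feeding-restraining peptides, 1 rose and 0 fell, with a median effect of 0.04, where 0.302% of all genes rose. Pomc, the melanocortin precursor, was lower in the ob mice without passing the test across genes. Its values were -0.54, 0.03, -0.72, 0.18 and -0.10 in ob mice 9, 1751, 1752, 1822 and 1823, and 0.78, 0.27, 0.73, 0.57 and 0.50 in lean mice 20, 22, 23, 24 and 48. Each lean mouse lay above each ob mouse. The difference was -0.80 ± 0.35 (limma adjusted p = 0.36, exact permutation p = 0.00794). The member that rose was Grp, gastrin-releasing peptide, with 0.02 to 0.14 in the ob mice and -0.34 to -0.18 in the lean mice and an effect of 0.30 ± 0.07 (limma adjusted p = 0.03). Its call was lost without any 1 of 7 mice. Crh, Trh and Nts, encoding corticotropin-releasing hormone, thyrotropin-releasing hormone and neurotensin, had effects of -0.37, -0.40 and -0.40 and did not pass.

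**Figure D1:**
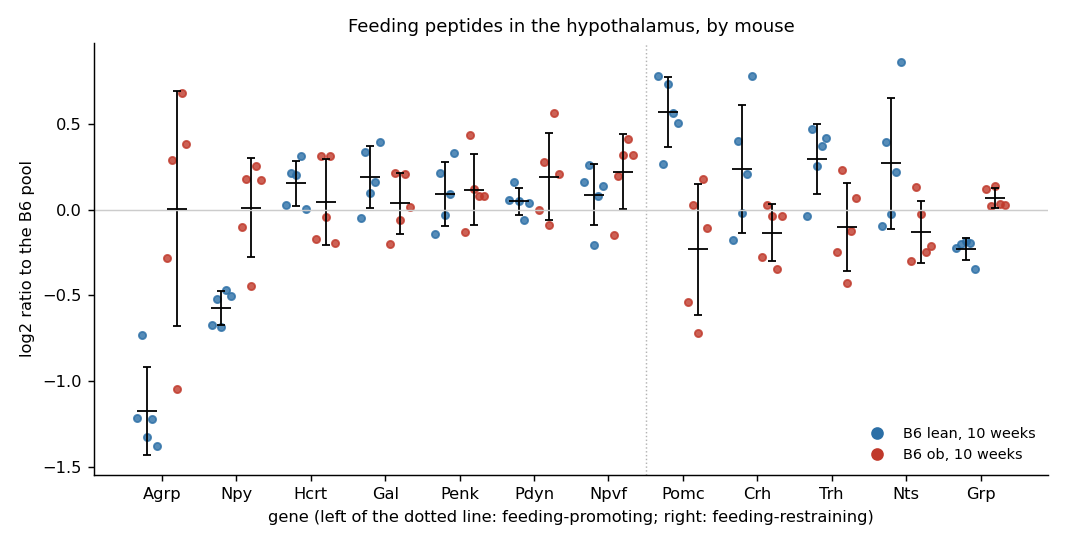
Log2 ratio to the B6 pool (vertical axis) of 12 feeding peptide genes in each 10-week mouse, lean in blue and ob in red, with the mean and the SD of 5 mice. Agrp and Npy sit lower in the lean mice, Pomc and Grp separate the groups without overlap in opposite directions, and the groups overlap for the other 8 genes.

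The effects on Agrp and Npy had the same sign elsewhere. In B6 mice at 4 weeks they were 0.74 ± 0.28 and 0.33 ± 0.14, neither past the threshold. In BTBR mice at 10 weeks they were 2.19 ± 0.28 and 1.01 ± 0.14, both past it (limma adjusted p = 1.25e-06 and 8.24e-06). Neither the difference between ages nor that between strains passed for either gene, with 1.01 ± 0.39 more in BTBR for Agrp (limma adjusted p = 0.315) and 0.43 ± 0.20 for Npy (limma adjusted p = 0.445).

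Of 40 measured receptors and signal genes of the appetite pathway, 0 passed in limma and the median effect was -0.02, with 3 at an unadjusted p below 0.05. Lepr, the leptin receptor, ranged from -1.24 to 0.25 in the ob mice and from -0.72 to 0.98 in the lean mice, an effect of -0.41 ± 0.25 (limma adjusted p = 0.589). Lep itself lay between -0.10 and 0.09 in every mouse, where a ratio near 0 gives no level. Among 25 targets of STAT3 and cytokine signals, through which the leptin receptor acts, 1 fell, against 0.457% of all genes, and the median effect was -0.18. Of the 25, 20 had negative effects and 11 an unadjusted p below 0.05, against 2173 of 19896 over all genes. The gene that fell was Cish, a suppressor of cytokine signalling that is best known as a target of STAT5, at -0.32 ± 0.08 (limma adjusted p = 0.0491). Leaving out single mice ended its call in 6 of 10 fits. Socs3, the feedback inhibitor of leptin signalling, measured -0.35, -0.26, -0.47, -0.01 and -0.25 in ob mice 9, 1751, 1752, 1822 and 1823 and 0.12, 0.40, 0.27, -0.10 and -0.11 in lean mice 20, 22, 23, 24 and 48. The groups overlapped through ob mouse 1822, and the effect of -0.38 ± 0.13 did not pass (limma adjusted p = 0.176). Of 15 genes of secretory granules and peptide processing, 10 had positive effects and the median was 0.06, with 5 at an unadjusted p below 0.05. Past the threshold 0 of the 15 rose and 1 fell, where 0.457% of all genes fell. The fall was that of Prcp, the prolylcarboxypeptidase that cleaves and inactivates a melanocortin made from Pomc, by -0.32 ± 0.06 (limma adjusted p = 0.00536). Its call was lost in 1 of 20 alternative settings (limma adjusted p = 0.153).

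Among the 12 largest rises without overlap between the groups, the largest was that of Slc2a4, the insulin-responsive glucose transporter GLUT4. It measured 0.42, 0.38, 0.11, 0.50 and 0.24 in ob mice 9, 1751, 1752, 1822 and 1823 and lay between -0.59 and -0.47 in the lean mice. The lean values were tight and all ob values lay far above them. The rise was 0.85 ± 0.16, 1.8-fold (limma adjusted p = 0.00365), and it was called in all 20 alternative settings tried. In BTBR mice it was 1.36 ± 0.16. Trim29, a tripartite-motif protein, rose by 0.72 ± 0.13, and Pla2g4e, a cytosolic phospholipase A2, by 0.54 ± 0.08. Cldn14, a claudin of tight junctions, Itgad, a leukocyte integrin, and Apoc1, an apolipoprotein, rose by 0.54 ± 0.14, 0.52 ± 0.12 and 0.50 ± 0.12. Leaving out 1 mouse ended these 3 calls in 8, 6 and 5 of 10 fits. Over the 20 alternative settings the 3 effects ran from 0.48 to 0.87, 0.44 to 1.07 and 0.46 to 0.55. The secreted protein gene Egfl6, the RNA-binding protein gene Rbm38, the monocarboxylate transporter gene Slc5a8 and Ddah2 rose by 0.43 to 0.47. Of these 4, Slc5a8 lost its call in 7 of 10 fits without 1 mouse and the others in 0 of 10.

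Rbm3 and Cirbp encode RNA-binding proteins that are induced when cells cool. Rbm3 measured 0.13 to 0.40 in the ob mice and -0.45 to -0.04 in the lean mice and rose by 0.53 ± 0.11 (limma adjusted p = 0.00756). Cirbp, added after its value was seen, measured 0.12 to 0.51 and -0.38 to 0.06 and rose by 0.42 ± 0.10 (limma adjusted p = 0.0416). For both genes the 5 ob mice lay above the 5 lean mice. Rbm3 lost its call under quantile normalization (limma adjusted p = 0.109), and Cirbp lost its call without any 1 of 7 mice. Both genes had also risen at 4 weeks, by 0.76 ± 0.11 and 0.55 ± 0.10. In BTBR mice the effects were 1.24 ± 0.11 and 0.73 ± 0.10, and for Rbm3 the strain difference of 0.72 ± 0.15 passed (limma adjusted p = 0.015).

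The largest fall among genes with an established name was that of Pkd2l1, a cation channel known from neurons that touch the cerebrospinal fluid. Its values were -0.26, -0.38, -0.02, -0.34 and -0.39 in ob mice 9, 1751, 1752, 1822 and 1823, against 1.05, 0.59, 1.02, 0.55 and 0.98 in lean mice 20, 22, 23, 24 and 48. The lowest lean mouse, at 0.55, lay far above the highest ob mouse, at -0.02. The fall was -1.12 ± 0.15, to 0.461 of the lean value (limma adjusted p = 4.08e-05), and -0.76 ± 0.15 in BTBR mice. Fmo2, a flavin-containing monooxygenase, fell by 0.83 ± 0.11. Igfbp1, a binding protein of insulin-like growth factors that insulin represses in liver, fell by 0.81 ± 0.19, and Rgs1, a brake on G-protein signalling, by 0.79 ± 0.14. The call of Igfbp1 was lost in 5 of 10 fits without 1 mouse. Etv5, an ETS transcription factor, fell by 0.56 ± 0.11.

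Angptl4, an inhibitor of lipoprotein lipase, and Txnip, an inhibitor of thioredoxin that glucose induces, fell in B6 mice and rose in BTBR mice. Angptl4 measured -0.71 to -0.26 in the ob mice and 0.13 to 0.45 in the lean mice, a fall of -0.74 ± 0.10 (limma adjusted p = 2.01e-05). Txnip measured -0.56 to -0.15 and 0.03 to 0.68, a fall of -0.60 ± 0.12 (limma adjusted p = 0.00612), which was lost in the fit on the 10 arrays alone (limma adjusted p = 0.103). In BTBR mice Angptl4 rose by 0.54 ± 0.10 and Txnip by 0.43 ± 0.12. Both strain differences passed, at 1.29 ± 0.14 (limma adjusted p = 2.98e-07) and 1.02 ± 0.17 (limma adjusted p = 0.00104). At 4 weeks the B6 effects were -0.56 ± 0.10 and -0.41 ± 0.12.

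**Figure D2:**
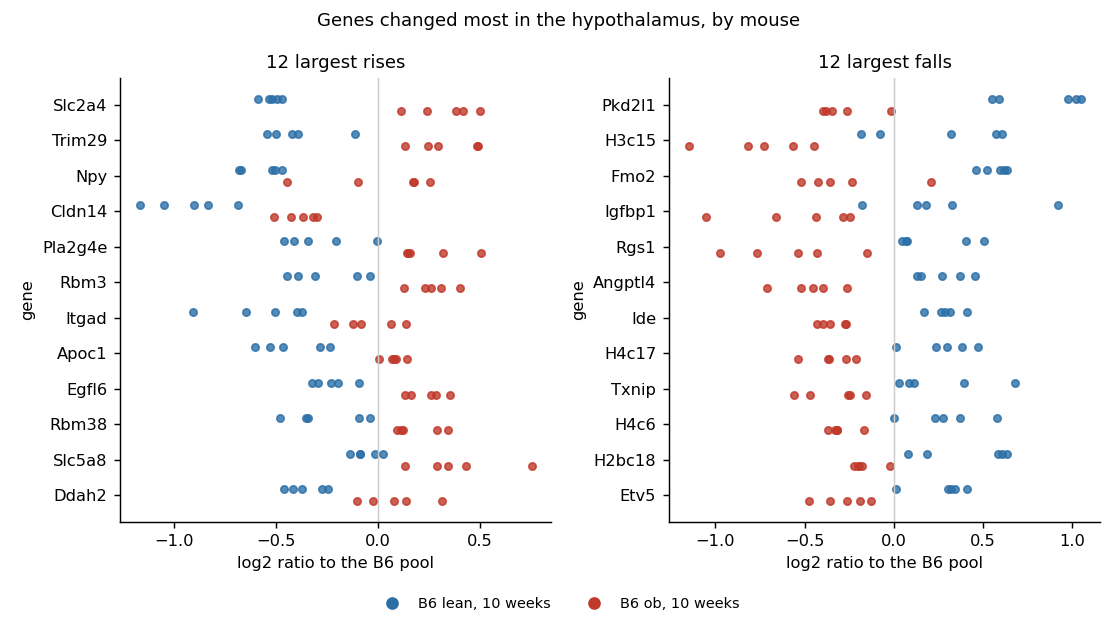
Log2 ratio to the B6 pool (horizontal axis) in each of the 5 lean (blue) and 5 ob (red) mice at 10 weeks, for the 12 largest rises and 12 largest falls among named genes whose groups do not overlap. The gap is widest for Slc2a4 among the rises and for Pkd2l1 among the falls.

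Clustered histone genes made up 21 of the 91 falls. These genes sit in a few clusters in the genome and are transcribed mainly in S phase, and some are also made as polyadenylated RNA in cells that do not divide. The group was put together after its values had been seen. Of 59 measured, 21 fell and 0 rose, with a median effect of -0.25, where 0.457% of all genes fell. In 28 of the 59 the groups did not overlap, with the ob mice lower in each, against 1.69% of all genes. By class, 10 of 12 H4 genes fell, 7 of 14 H2B genes, 2 of 16 H2A genes, 1 of 11 H3 genes and 1 of 6 H1 genes. Many genes of the H2A, H2B, H3 and H4 classes are near-identical in sequence, so that probes may read RNA of more than 1 member, and values of single members are uncertain. Members of the H1 class, which is not among these, differed: H1f4 fell by 0.51 ± 0.09 while H1f3 had 0.08 ± 0.06. That does not show whether probes separate the members of the other classes. Over the 20 alternative settings the effect of H1f4 ran from -0.94 to -0.45.

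The largest of these falls was that of H3c15. It measured -0.73, -0.82, -0.57, -1.15 and -0.45 in ob mice 9, 1751, 1752, 1822 and 1823 and 0.57, 0.32, -0.07, -0.18 and 0.60 in lean mice 20, 22, 23, 24 and 48, with no overlap. It fell by 0.99 ± 0.14 (limma adjusted p = 8.18e-05). H4c17, H4c6 and H2bc18 fell by 0.63 ± 0.10, 0.59 ± 0.10 and 0.58 ± 0.09. The mean over the 12 H4 genes lay between -0.32 and -0.10 in the ob mice and between 0.01 and 0.35 in the lean mice. Of 19 genes of cell division, 0 passed in limma, 1 had an unadjusted p below 0.05 and the median effect was -0.01.

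At 4 weeks 3 of the 59 histone genes rose and 0 fell in B6 hypothalamus (median 0.10), where 1.96% of all genes rose and 2.43% fell. The change of the effect from 4 to 10 weeks itself passed for 19 of the 59, all lower at 10 weeks, with 0.352% of all genes lower. For H1f2, H3c15 and H4c9, the 3 of them refitted in other settings, this difference was not called in the fit on the 20 B6 hypothalamus arrays alone (limma adjusted p of up to 0.108). In BTBR hypothalamus at 10 weeks 28 fell and 0 rose (median -0.22), where 6.35% of all genes rose and 6.24% fell. The strain difference passed for 0 of the 59 in limma, with 11 at an unadjusted p below 0.05, against 2110 of 19896 over all genes. In adipose tissue of B6 mice of the same numbers, 38 rose and 2 fell, where 41.7% of all genes changed, and in liver 21 rose and 1 fell, where 41.4% changed. In gastrocnemius 18 rose and 3 fell (16.2% of all genes changed) and in soleus 17 rose and 1 fell (15.3%), while in islets 6 rose and 5 fell (44.1%). In B6 hypothalamus 11 of the 59 fell in the fit on the 10 arrays alone, 13 without lean mouse 22 and 14 without ob mouse 1752.

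**Figure D3:**
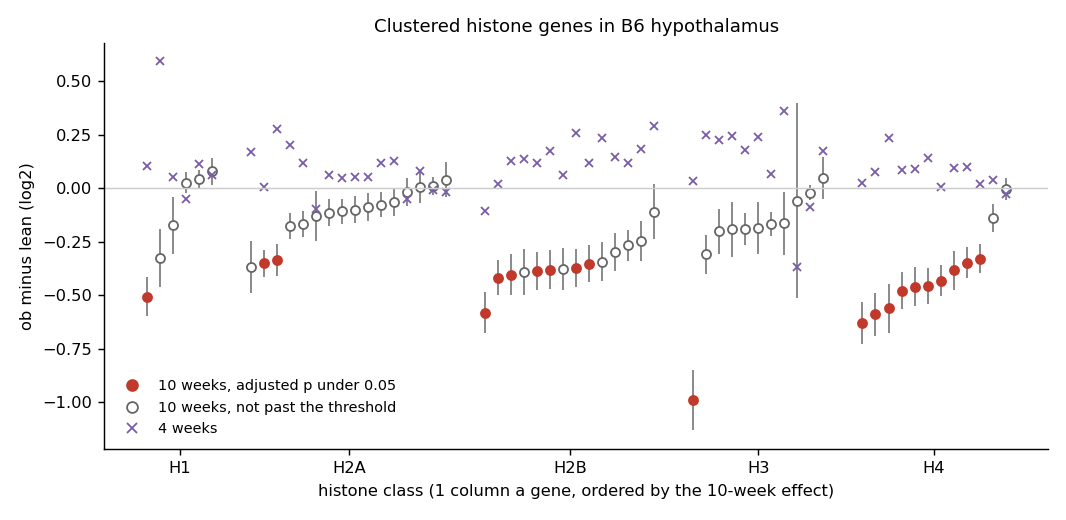
Effect of obesity in B6 hypothalamus (vertical axis, ob minus lean on the log2 scale) for each of the 59 clustered histone genes, grouped by class. Circles are the 10-week effects with the SE of the fit, filled where the adjusted p is below 0.05, and crosses are the 4-week effects; the filled circles all lie below 0 and lie mostly among the H4 and H2B genes, while most crosses lie above 0.

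Since the histone genes fell together, the stretches before the start of 4 of them are shown, 250 bases each from RefSeq promoters on GRCm38.p6, with matches to CCAAT or TATAAA on either strand in capitals. They lie at chr3:96239128-96239377 (minus strand) for H3c15, chr13:23551669-23551918 (minus strand) for H4c6, chr13:22041363-22041612 (minus strand) for H4c9 and chr3:96269450-96269699 (plus strand) for H2bc18.
H3c15: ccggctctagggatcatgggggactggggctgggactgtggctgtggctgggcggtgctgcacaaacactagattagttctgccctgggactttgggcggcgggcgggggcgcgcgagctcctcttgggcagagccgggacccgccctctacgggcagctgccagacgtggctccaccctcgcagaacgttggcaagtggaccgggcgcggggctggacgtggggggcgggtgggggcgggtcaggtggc
H4c6: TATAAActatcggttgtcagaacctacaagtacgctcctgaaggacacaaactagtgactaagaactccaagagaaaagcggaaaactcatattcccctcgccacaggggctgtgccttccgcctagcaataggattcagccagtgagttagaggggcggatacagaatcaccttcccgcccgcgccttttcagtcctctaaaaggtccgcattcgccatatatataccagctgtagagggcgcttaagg
H4c9: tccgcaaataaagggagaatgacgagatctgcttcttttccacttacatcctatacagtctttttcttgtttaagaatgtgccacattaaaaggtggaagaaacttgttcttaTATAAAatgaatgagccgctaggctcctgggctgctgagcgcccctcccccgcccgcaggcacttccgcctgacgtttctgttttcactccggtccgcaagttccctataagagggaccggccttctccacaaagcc
H2bc18: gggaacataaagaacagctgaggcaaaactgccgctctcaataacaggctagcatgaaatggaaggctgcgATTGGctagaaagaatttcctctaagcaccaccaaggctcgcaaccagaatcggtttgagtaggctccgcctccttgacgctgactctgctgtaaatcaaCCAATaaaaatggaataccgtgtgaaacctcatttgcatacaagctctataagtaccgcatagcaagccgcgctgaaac
CCAAT, on either strand, was held by 44 of 54 measured histone genes with a promoter in the table (81.5%) and by 34.5% of all 27025 promoters of that length. TATAAA, on either strand, was held by 26 of the 54 (48.1%) and by 13.0% of all promoters. Among the 20 of these that fell, 11 held CCAAT and 10 held TATAAA. H3c15 holds neither in this window. Matches of the 2 motifs can overlap, and a match is not a binding site.

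Of 24 measured genes of endoplasmic reticulum stress, 4 fell, 0 rose and the median effect was -0.11, with 21 of 24 negative. Of all genes 0.457% fell. An unadjusted p below 0.05 was reached by 10 of the 24, against 2173 of 19896 over all genes. Sdf2l1 and Creld2, chaperone-associated proteins of that compartment, fell by 0.49 ± 0.10 and 0.40 ± 0.09, Pdia4, a disulfide isomerase, by 0.30 ± 0.08 and Calr, the chaperone calreticulin, by 0.28 ± 0.07. Sdf2l1 measured -0.52 to -0.07 in the ob mice and -0.04 to 0.33 in the lean mice. For each of the 4 the groups did not overlap, where 1.69% of all genes had no overlap with the ob mice lower. With single mice left out, 1 to 7 genes of the list passed, and leaving out lean mouse 20, 22 or 48 or ob mouse 1822 or 1823 left 1. Only 1 passed in the fit on the 10 arrays alone. In BTBR hypothalamus 12 of the 24 fell and 2 rose (12.6% of all genes changed there). Of 14 heat shock genes, 0 passed in limma, with a median of -0.15 and 6 at an unadjusted p below 0.05.

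Of 18 measured genes of cholesterol synthesis, 2 rose and 0 fell, with a median effect of 0.13, where 0.302% of all genes rose. In B6 mice 7 of the 18 had an unadjusted p below 0.05, against 2173 of 19896 over all genes. For 4 of them the groups did not overlap, with the ob mice higher in each, against 1.41% of all genes. Lss, lanosterol synthase, measured -0.01 to 0.27 in the ob mice and -0.38 to -0.13 in the lean mice and rose by 0.38 ± 0.07 (limma adjusted p = 0.00365). Insig1, which holds the sterol-sensing complex in the endoplasmic reticulum, rose by 0.37 ± 0.09 (limma adjusted p = 0.0491), a call lost in 9 of 10 fits without 1 mouse. In BTBR mice 1 of the 18 rose and 8 fell, where 6.35% of all genes rose and 6.24% fell. The strain difference passed in limma for 5 of the 18, all lower in BTBR, where 0.246% of all genes were lower. For that difference 12 of the 18 had an unadjusted p below 0.05, against 2110 of 19896 over all genes. Of 25 genes of fatty acid synthesis and lipid handling, 0 passed in limma, with 1 at an unadjusted p below 0.05.

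Of 30 glucocorticoid-responsive genes, 25 had negative effects and 9 an unadjusted p below 0.05, with a median of -0.19. Past the threshold 2 fell, where 0.457% of all genes fell. These were Angptl4, above, and Nfkbia, the inhibitor of NF-kappaB, which fell by 0.59 ± 0.15 (limma adjusted p = 0.0435) with overlapping groups, and whose call was lost in 6 of 10 fits without 1 mouse. Of 23 immediate early genes, which respond to neuronal activity and to handling, 0 passed in limma, with a median of -0.34 and 5 at an unadjusted p below 0.05. Their mean ran from -0.37 to -0.04 in the ob mice and from -0.25 to 0.41 in the lean mice. Of 28 genes of inflammatory signalling, Il18 rose by 0.29 ± 0.06 and Nfkbia fell, where 0.302% of all genes rose and 0.457% fell. None of 25 interferon genes, 16 genes of antigen presentation, 17 clock genes, 19 genes of hypophysiotropic and neurohypophysial hormones, 40 genes of oxidative phosphorylation or 30 ribosomal protein genes passed in limma. At an unadjusted p below 0.05 these lists held 2, 3, 3, 3, 1 and 5 genes in that order.

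In 13 of 15 lists of cell type markers no gene passed in limma. Among them were neurons (17 genes, median 0.01), astrocytes (16, median -0.04), myelin and oligodendrocytes (22, median -0.03) and microglia and macrophages (23, median -0.08). In that order they held 0, 9, 3 and 6 genes at an unadjusted p below 0.05, against 2173 of 19896 over all genes. Effects were negative for 22 of the 23 microglial genes and 10 of the 16 astrocyte genes. They were also negative for all 17 genes of choroid plexus and ependyma (median -0.35) and all 6 blood genes (median -0.49). In each of these last lists 0 genes had an unadjusted p below 0.05. The 2 calls were Agrp itself in the hypothalamus list and Kcnj8, a potassium channel subunit of pericytes, which fell by 0.36 ± 0.08 (limma adjusted p = 0.0176), a call lost in 4 of 10 fits without 1 mouse. Microglial markers averaged -0.12 to -0.03 in the ob mice and 0.01 to 0.06 in the lean mice. Markers of choroid plexus and ependyma varied most between mice within a group, from -1.13 to 0.58 in the ob mice and from -1.001 to 0.90 in the lean mice, and 6 blood genes from -0.91 to -0.11 and from -0.52 to 0.56. Pituitary markers averaged -0.56 to 0.49 in the ob mice and -0.40 to 0.15 in the lean mice. Their part in the results above was not tested.

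Ide, the insulin-degrading enzyme, fell by 0.63 ± 0.07, to 0.644 of the lean value (limma adjusted p = 1.92e-07). It measured -0.27, -0.43, -0.27, -0.40 and -0.36 in ob mice 9, 1751, 1752, 1822 and 1823 and 0.31, 0.27, 0.41, 0.29 and 0.17 in lean mice 20, 22, 23, 24 and 48. Both groups were tight and well apart. In the 20 alternative settings Ide kept its call, with effects of -1.02 to -0.60. The measured gene next to it on chromosome 19 in GRCm38.p6, 4931408D14Rik, had the largest change among the 151, -1.55 ± 0.11 (limma adjusted p = 1.17e-11), with values of -0.96 to -0.80 in the ob mice and 0.10 to 1.08 in the lean mice. Fgfbp3, a carrier of fibroblast growth factors that lies further along the same stretch, fell by 0.50 ± 0.07 (limma adjusted p = 5.51e-05). These neighbours were looked at after the value of Ide had been seen. Of 15 measured genes in this stretch the other 12 did not pass, with effects of -0.09 to 0.28, and 4 of them lie between Fgfbp3 and 4931408D14Rik. In BTBR mice the 3 effects were -0.00 ± 0.07 for Ide, 0.20 ± 0.11 for 4931408D14Rik and 0.02 ± 0.07 for Fgfbp3, and the strain difference passed for each.

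**Figure D4:**
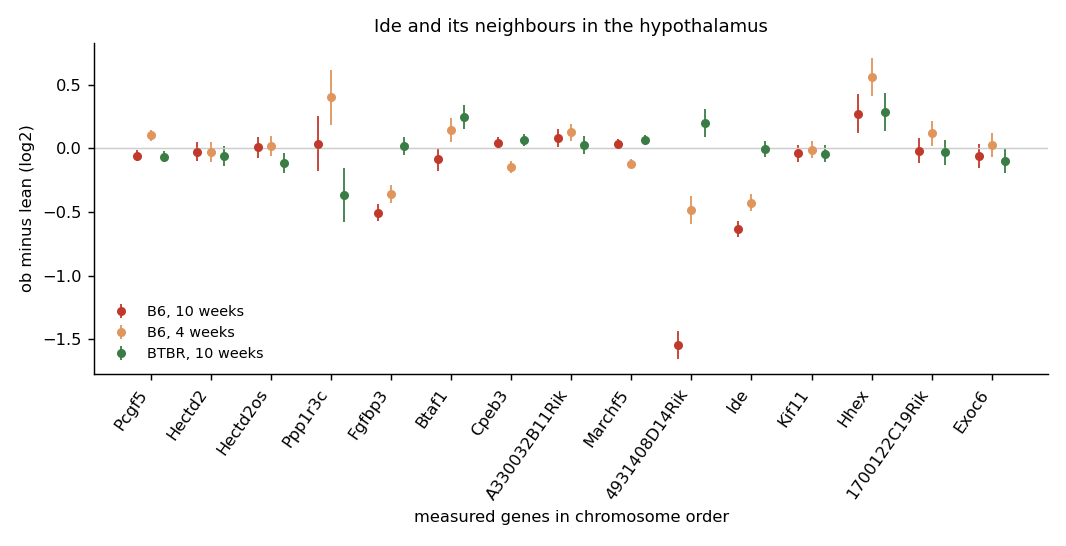
Effect of obesity in hypothalamus (vertical axis, ob minus lean on the log2 scale, with the SE of the fit) for the 15 measured genes around Ide in their order on the chromosome, in B6 mice at 10 and 4 weeks and BTBR mice at 10 weeks. Fgfbp3, 4931408D14Rik and Ide lie below 0 in B6 mice at both ages and near or above 0 in BTBR mice, and none of the other 12 passed in B6 mice at 10 weeks.

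Ide was also lower in the ob mice in the other 5 tissues, from mice of the same numbers, by 0.41 to 0.63. Over the 6 tissues the 5 ob mice lay between -0.43 and -0.10, lean mice 20, 22, 23 and 24 between 0.18 and 0.54, and lean mouse 48 between -0.15 and 0.18, the lowest of the lean mice in every tissue. The neighbours of Ide varied more by tissue. In islets 4931408D14Rik was higher in the ob mice (0.15 to 0.35, lean -0.32 to 0.09), and in liver and soleus its groups overlapped. Fgfbp3 overlapped in liver (ob -0.02 to 0.08, lean -0.04 to 0.17). Both were lower in the ob mice without overlap in adipose tissue and gastrocnemius, as was Fgfbp3 in islets and soleus. A call of the same sign in all 5 other tissues was made for 5 of the 151 genes: Ide, Mocs3, Pla2g4e, Insig1 and Cish, while 52 were called alike in none. The share of all genes called in those tissues ran from 15.3% in soleus to 44.1% in islets. Mocs3, an enzyme of molybdenum cofactor synthesis, measured 0.11 to 0.30 in the ob mice and -0.30 to -0.17 in the lean mice and rose by 0.43 ± 0.07 (limma adjusted p = 0.000323). Its effect in BTBR mice was -0.01 ± 0.07, and the strain difference passed (limma adjusted p = 0.0175).

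Pisd-ps3, a pseudogene of the phosphatidylserine decarboxylase gene Pisd that was singled out after its values were seen, split the ob group. Ob mice 1822 and 1823 measured 0.85 and 1.11, while ob mice 9, 1751 and 1752 measured -0.48, -0.34 and -0.67 and the lean mice -1.01 to -0.60. The same 2 mice were the highest of the ob mice in each tissue: over 6 tissues they lay between 0.51 and 1.11, and the other 3 between -0.67 and 0.36. The group difference of 0.87 ± 0.19 (limma adjusted p = 0.0162) was lost without ob mouse 1822 (0.68, limma adjusted p = 0.0884), ob mouse 1823 (0.61, limma adjusted p = 0.0737) or lean mouse 23 (0.81, limma adjusted p = 0.0595). At 4 weeks every B6 ob mouse was high for Pisd-ps3 in hypothalamus, at 0.43 to 0.63, against -1.03 to -0.41 in the lean mice. Genotype and copy number at these loci were not measured, and their part in the values of Ide, its neighbours, Mocs3 and Pisd-ps3 was not tested.

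**Figure D5:**
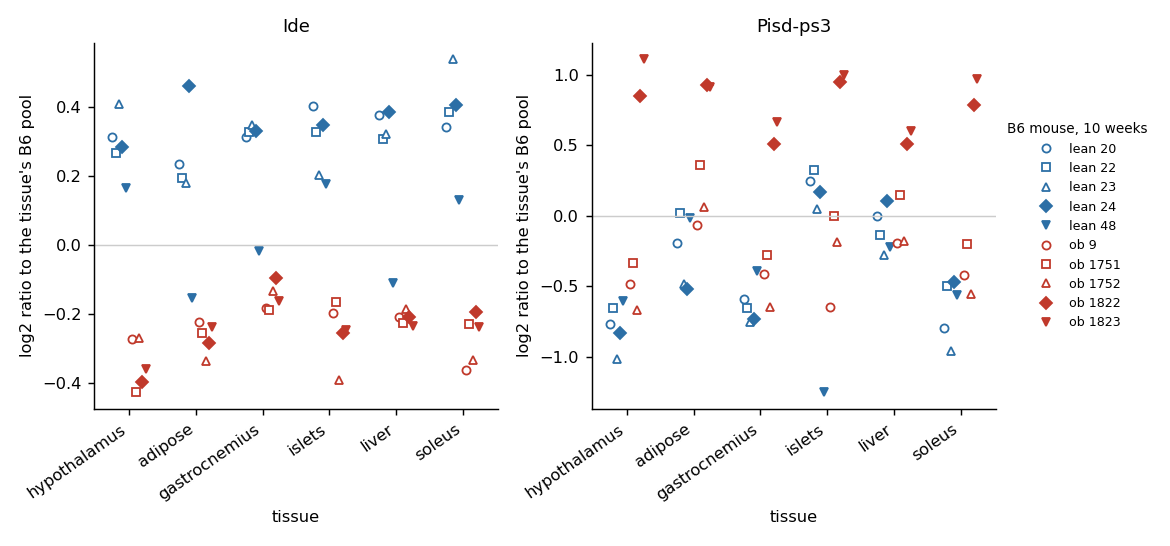
Log2 ratio of Ide (left) and Pisd-ps3 (right) to the B6 pool of each tissue (vertical axes) in 6 tissues of the 10-week B6 mice, with lean mice in blue, ob mice in red and 1 symbol for each mouse. Ide separates ob from lean mice in every tissue with lean mouse 48 lowest among the lean, and Pisd-ps3 is high in ob mice 1822 and 1823 in every tissue.

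Lep lies on chromosome 6. Of 268 measured genes within 20 Mb of it, 1 changed (0.373%), which was Pdia4, against 0.771% on the other chromosomes. The strain difference in the same stretch of 20 Mb passed for 6 genes (2.24%), against 0.514% on other chromosomes. Rbm28, which encodes a nucleolar RNA-binding protein and lies within 5 Mb of Lep, had an effect of -0.06 ± 0.05 in B6 mice and -0.70 ± 0.05 in BTBR mice, a strain difference of -0.64 ± 0.08 (limma adjusted p = 3.64e-06).

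The B6 comparison at 10 weeks can be set beside those in other mice. In BTBR hypothalamus at the same age 2504 genes changed (12.6%), and 79 of the B6 calls were called there with the same sign, 52.3% of the B6 list and 3.15% of the BTBR list, with 3 of opposite sign. In B6 hypothalamus at 4 weeks 873 genes changed (4.39%), and 34 of the 10-week calls were called with the same sign, 22.5% of the 10-week list and 3.89% of the 4-week list, with 5 of opposite sign. The difference between the strains' effects passed for 110 genes (0.553%), of which 61 were higher in BTBR. The difference between the B6 effects at 10 and 4 weeks passed for 123 genes (0.618%), of which 70 were lower at 10 weeks.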

How the data were processed

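Per the labels, total RNA was taken with Trizol and an RNeasy column, amplified in 1 round to cRNA and labelled with Cy3 and Cy5. The deposited values are log10 ratios of 1 mouse and its pool, as read from the values. How the arrays were scanned, background-corrected or normalized is not given in the sources used here. No batch is named in the labels, and p-values measure the spread between mice. Values were rescaled to log2. Of 39556 probes, 23283 were given 1 gene symbol, and probes of a gene were averaged (19896 genes). No filter on level was used. limma 3.58.1 in R 4.3.3 fitted 8 group means over 40 hypothalamus arrays, and Benjamini-Hochberg adjusted p-values cover all genes. The number of arrays limits precision.

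Members, gene lists and tests were chosen with earlier results of these data known. Genes named are the list members of the feeding peptides, the 12 largest rises and 12 largest falls without overlap between groups (placeholder symbols skipped), up to 4 called members of each list and the 5 largest differences each way for strain and age, of which a part is printed. Histones, Cirbp, Mocs3, Pisd-ps3, the neighbours of Ide and the genes near Lep were added after seeing values. Mouse numbers are those of the labels. The code was tested on simulated data. Python 3.11.15 with pandas 2.3.3 and matplotlib 3.10.9 made tables and figures.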

Additional observations from a re-analysis of the deposited data

Results flagged for a closer look

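In groups of 5, 10 of the 184 groups of values examined held 1 mouse far from the other 4, by a gap of over 0.71 of the group's range; chance gives about 1 in 20 groups. Agrp was -0.73 in B6 lean mouse 22, against -1.38 to -1.22 in the others. Crtam was 0.16 in B6 lean mouse 23, against 0.01 to 0.05 in the others. Etv5 was 0.014 in B6 lean mouse 24, against 0.30 to 0.41 in the others. Grp was -0.34 in B6 lean mouse 48, against -0.22 to -0.18 in the others. H1f2 was -0.16 in B6 ob mouse 1823, against -0.45 to -0.40 in the others. H2bc11 was 0.34 in B6 lean mouse 22, against 0.09 to 0.16 in the others. H2bc18 was -0.023 in B6 ob mouse 9, against -0.22 to -0.18 in the others. H4c6 was -0.17 in B6 ob mouse 1823, against -0.37 to -0.32 in the others. Nmb was 0.25 in B6 lean mouse 22, against -0.01 to 0.03 in the others. Ucn3 was 0.46 in B6 lean mouse 22, against -0.13 to 0.02 in the others.

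The effect of obesity in B6 hypothalamus differed between 10 and 4 weeks, by a test of the difference in limma, for 25 of the genes named. As 10-week minus 4-week effects on the log2 scale, those among histone genes were H1f2 (-0.92), H1f4 (-0.61), H2ac6 (-0.61), H2bc11 (-0.63), H2bc15 (-0.53), H2bc22 (-0.56), H2bc3 (-0.51), H3c15 (-1.03), H4c11 (-0.56), H4c12 (-0.60), H4c17 (-0.65), H4c2 (-0.55), H4c3 (-0.45), H4c6 (-0.66), H4c9 (-0.79) and H4f16 (-0.44). Lower effects at 10 weeks elsewhere were 4931408D14Rik (-1.07), Apod (-0.80) and Fmo2 (-0.88). Higher effects at 10 weeks were Egfl6 (0.67), Emp2 (0.87), Heyl (0.68), Igsf1 (0.76), Mmp14 (1.08) and Rbm38 (0.70). Of the 10 of these genes refitted in 30 other settings, Fmo2, Heyl and Mmp14 kept the call in all. Emp2 lost it in 11, 9 of them fits without 1 mouse, Apod in 3, and H1f2, H3c15, H4c9, Igsf1 and Rbm38 in 2 each, both of them the fit on the B6 arrays, which are also the groups compared.

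The effect differed between BTBR and B6 mice at 10 weeks, by a test of the difference in limma, for 15 of the genes named. As BTBR minus B6 effects on the log2 scale, higher ones were 4931408D14Rik (1.75), A2m (0.96), Angptl4 (1.29), Crtam (1.11), Fgfbp3 (0.52), Galnt15 (1.01), Ide (0.63), Rbm3 (0.72) and Txnip (1.02). Lower ones were Mocs3 (-0.44), Msmo1 (-0.61), Npvf (-0.70), Rbm28 (-0.64), Unc5cl (-0.58) and Zfp846 (-0.81). Of the 10 of these refitted in 29 other settings, Npvf lost the call in 15, 12 of them fits without 1 mouse, and Unc5cl in 2, while the other 8 kept it in all.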

How the results depend on the processing

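The count of 151 genes changed by obesity at 10 weeks came to 51 in the fit on the 10 arrays alone, 92 on the B6 arrays alone and 257 under quantile normalization. Median centring, array weights, robust variances, the median of a gene's probes, each probe tested alone, only the genes of greater spread and leaving out 23 genes at the limits of -2 and 2 kept it within 1.5 times. Leaving out 1 mouse gave 84 to 175, with 84 without ob mouse 1822, 92 without ob mouse 1823, and 97, 91 and 90 without lean mice 20, 22 and 48. Of 60 named genes called at 10 weeks, 0 reversed and 14 were called in all settings. The 123 genes whose effect differed between ages came to 30 in the fit on the groups compared alone, which are the B6 arrays, and to 52 to 431 without 1 mouse, the most without lean 4-week mouse 34 (431), ob 4-week mouse 5 (342) and ob 10-week mouse 1752 (230), and 52 to 79 without any 1 of 10-week ob mice 1822 and 1823 and lean mice 20, 22 and 48 and of 4-week ob mice 7, 11 and 14 and lean mice 31, 35 and 45. The 110 genes whose effect differed between strains came to 64 in the fit on those groups alone and 50 under quantile normalization, and to 62 to 149 without 1 mouse, with 62 without BTBR lean mouse 32, 68 without B6 lean mouse 23 and 149 without BTBR ob mouse 18. The causes were not tested. With the sign of all ratios turned, the counts stay and higher and lower change places. No paired analysis was possible because the groups compared share no mouse.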
